A study of Mus musculus with 2 samples.

Results

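Tissue-resident macrophages clear their surroundings through receptors that take up modified lipoproteins, glycoproteins, hyaluronan, haemoglobin complexes and dying cells. 9 genes for such receptors were followed in nuclei of a subcutaneous fat depot of the mouse, inguinal white adipose tissue (iWAT): Mrc1, Cd163, Stab1, Lyve1, Timd4, Cd209b, Cd209f, Marco and Mertk. They were chosen as a list of gene names, with no measured value in the rule, and are 9 of the 31053 genes in the deposited matrices, and each had counts in at least 1 library. Single-nucleus RNA sequencing (snRNA-Seq) counts unique molecular identifiers (UMIs), 1 per captured RNA molecule, in each nucleus. All mice were male, of C57BL/6 background and fed a Western diet. The library labelled Lexis WT stands for Lexis fl/fl mice without Cre, and the library labelled Lexis KO for littermates in which Adipoq-cre, active in adipocytes, deletes the long noncoding RNA Lexis. The Cre is thus not directed at macrophages. Each library pooled fat of 3 mice, from which the lymph node was stated to have been removed, and the ages of these mice are not given in the sources used here.

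There was 1 library per genotype. No test was therefore made, no p-value is given, and each interval is a 95% interval that covers counting error only, not the spread between mice. The file names of both libraries carry the genotype opposite to the sample label. The extraction protocol gives 1 group name to both pools, and the design text of the series names 1 genotype for both. Lexis was not analysed here, and each library is called by its label throughout, as labelled WT or labelled KO. The direction of every difference between libraries below rests on these labels. Nuclei with at least 500 genes and at most 5% mitochondrial UMIs were kept, 3503 in the library labelled WT (median 1195 UMIs) and 2852 in the library labelled KO (median 3879 UMIs), and 10 barcodes occurred among the kept nuclei of both. Clusters were made without the 9 genes and named from marker lists that also left them out. Macrophage nuclei numbered 320 (median 1447 UMIs) and 818 (median 2856 UMIs). The 20 macrophage markers, such as Adgre1, Csf1r and C1qa, all had counts in both libraries, at a summed 9488 and 11776 CPM (counts of a gene per total UMIs of the class, on the usual CPM scale). Different clusters held the class in each library, cluster 7 with 318 of the 320 labelled WT nuclei and clusters 3 and 9 with 521 and 272 of the 818 labelled KO nuclei. Lymphocytes were 2019 of the labelled WT nuclei (57.6%) and 102 of the labelled KO nuclei (3.58%).

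The receptors fall into families with separate ligands. Mrc1 (the mannose receptor CD206), Cd209b (SIGN-R1) and Cd209f are C-type lectin receptors that bind glycans. Cd163 takes up haemoglobin bound to haptoglobin, Stab1 (stabilin-1) and Marco are scavenger receptors, and Lyve1 binds hyaluronan and is also a classical marker of lymphatic endothelium. Timd4 (TIM-4) binds phosphatidylserine on dying cells, and Mertk is a receptor tyrosine kinase that reaches dying cells through the bridging ligands Gas6 and protein S. In fat and other tissues, macrophages with Mrc1, Cd163 and Lyve1 are known to lie along vessels, and Timd4 is a known mark of long-lived resident macrophages. Cd209b and Marco are known from macrophages of the spleen and lymph nodes.

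In mouse assembly GRCm38.p6 (RefSeq positions; the files' build is mm10), Mrc1 lies at chr2:14229414-14332023 and Mertk at chr2:128698915-128803162, both long genes, with 96697 and 99603 intronic bases in the gene models of an earlier mouse assembly, from which only lengths were taken. Cd163 lies at chr6:124304636-124330529, Stab1 at chr14:31139017-31168651, Lyve1 at chr7:110850607-110862953, Timd4 at chr11:46810786-46844333 and Marco at chr1:120474538-120505024. Cd209b (chr8:3917655-3926841) and Cd209f (chr8:4102784-4105838) are related genes of 1 cluster on chromosome 8, with 7075 and 1521 intronic bases in the same models. Their values are uncertain to the extent that reads were shared, since how the counting divided reads between such copies is not given in the sources used here. The promoters of 6 genes are shown, the 3 that were higher in labelled KO macrophages and 3 that were high in 1 set of labelled WT macrophages, as the 250 bases before the transcript start of the RefSeq promoter table, 5′ to 3′ on the strand of the gene. For Cd163 and Timd4 that start lies inside the gene bounds given above, so that 15 and 13 bases of their windows fall within those bounds, and none of the other 4 windows do. Capitals mark the core letters bound by the macrophage factor PU.1 (GAGGAA) and the MAF half-site (TGCTGAC), searched on both strands.
Mrc1 promoter: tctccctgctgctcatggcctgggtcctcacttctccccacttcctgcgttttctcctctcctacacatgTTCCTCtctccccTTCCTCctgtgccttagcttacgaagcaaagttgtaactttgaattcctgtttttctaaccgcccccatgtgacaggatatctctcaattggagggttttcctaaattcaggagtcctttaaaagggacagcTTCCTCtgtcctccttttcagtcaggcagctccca
Cd163 promoter: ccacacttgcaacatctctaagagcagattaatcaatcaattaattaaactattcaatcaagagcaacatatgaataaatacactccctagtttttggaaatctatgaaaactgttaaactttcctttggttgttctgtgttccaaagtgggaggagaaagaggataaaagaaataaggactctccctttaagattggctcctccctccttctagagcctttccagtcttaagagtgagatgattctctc
Mertk promoter: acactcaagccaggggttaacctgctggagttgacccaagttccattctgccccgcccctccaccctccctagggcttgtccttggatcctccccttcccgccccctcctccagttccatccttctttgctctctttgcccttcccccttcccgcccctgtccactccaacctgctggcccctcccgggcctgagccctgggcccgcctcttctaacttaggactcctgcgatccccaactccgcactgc
Timd4 promoter: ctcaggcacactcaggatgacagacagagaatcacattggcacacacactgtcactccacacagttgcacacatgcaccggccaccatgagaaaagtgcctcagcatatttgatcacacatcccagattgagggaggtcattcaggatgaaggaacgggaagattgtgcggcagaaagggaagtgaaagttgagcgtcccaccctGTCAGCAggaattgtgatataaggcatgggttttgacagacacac
Cd209b promoter: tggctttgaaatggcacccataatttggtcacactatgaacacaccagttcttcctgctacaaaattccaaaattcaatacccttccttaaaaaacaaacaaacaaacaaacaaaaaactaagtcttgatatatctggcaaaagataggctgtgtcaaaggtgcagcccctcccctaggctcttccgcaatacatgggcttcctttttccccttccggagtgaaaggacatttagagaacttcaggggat
Marco promoter: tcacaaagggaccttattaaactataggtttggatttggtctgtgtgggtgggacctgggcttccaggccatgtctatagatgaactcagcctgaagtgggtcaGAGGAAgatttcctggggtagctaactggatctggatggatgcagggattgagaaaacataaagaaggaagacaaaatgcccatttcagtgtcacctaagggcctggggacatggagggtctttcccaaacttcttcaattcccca
The windows are chr2:14229164-14229413 (plus strand), chr6:124304401-124304650 (plus), chr2:128698665-128698914 (plus), chr11:46810549-46810798 (plus), chr8:3926842-3927091 (minus) and chr1:120505025-120505274 (minus). The PU.1 letters were found 3 times before Mrc1 and 1 time each before Marco and Stab1, in 3 of the 8 genes with a listed promoter, and in 23.3% of all 32851 listed windows. The MAF letters were found before Timd4 alone of the 8, 45 bases before that transcript start, and in 3.81% of all windows. A match describes letters and not binding.

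To ask in which cells these receptors were detected, UMIs were summed over each class of nuclei. In the library labelled WT, 7 of the 9 genes had their highest CPM in macrophages, and the other 2, Lyve1 and Marco, in endothelial nuclei. In the library labelled KO, 8 of 9 were highest in macrophages, and Marco was at 0 there. No share of all genes highest in macrophages is given beside these counts, which describe the 9 genes only. Mrc1 had 469 counts in labelled WT macrophages (767 CPM, interval 699.6 to 840.2) and 6522 in labelled KO macrophages (2460.4 CPM, interval 2401 to 2521). Lymphocytes, which should lack Mrc1, had 51.2 and 45.9 CPM. Free RNA in the droplets or remaining doublets can give such a background, and its source was not tested. For Mrc1 this background was much lower than the macrophage level in both libraries. A Mrc1 UMI was found in 47.8% and 81.8% of macrophage nuclei, against 4.90% and 7.84% of lymphocyte nuclei, whose median depth was 999 and 2079.5 UMIs. At an equal 1000 UMIs the lymphocyte shares were 3.97% of 1008 and 4.49% of 89 nuclei for Mrc1, and at most 1.69% and 1.12% for any of the other 8. Dendritic nuclei of the library labelled WT (99 nuclei) had 109 CPM of Mrc1, 80.9 of Cd163 and 97.0 of Stab1, all lower than in macrophages. Dividing nuclei of the library labelled KO, which numbered 25, carried Mrc1 at 1817 CPM and Cd163 at 1092 CPM, with a Mrc1 UMI in 92.0% of them. The 94 dividing nuclei of the library labelled WT had 191 and 82.0 CPM. Their lineage markers differed, the summed macrophage markers standing at 9792 CPM in the dividing nuclei of the library labelled KO and 2323 in those labelled WT, and the B cell markers at 392 and 6323 CPM, so the 2 sets give no comparison between libraries.

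**Figure D1:**
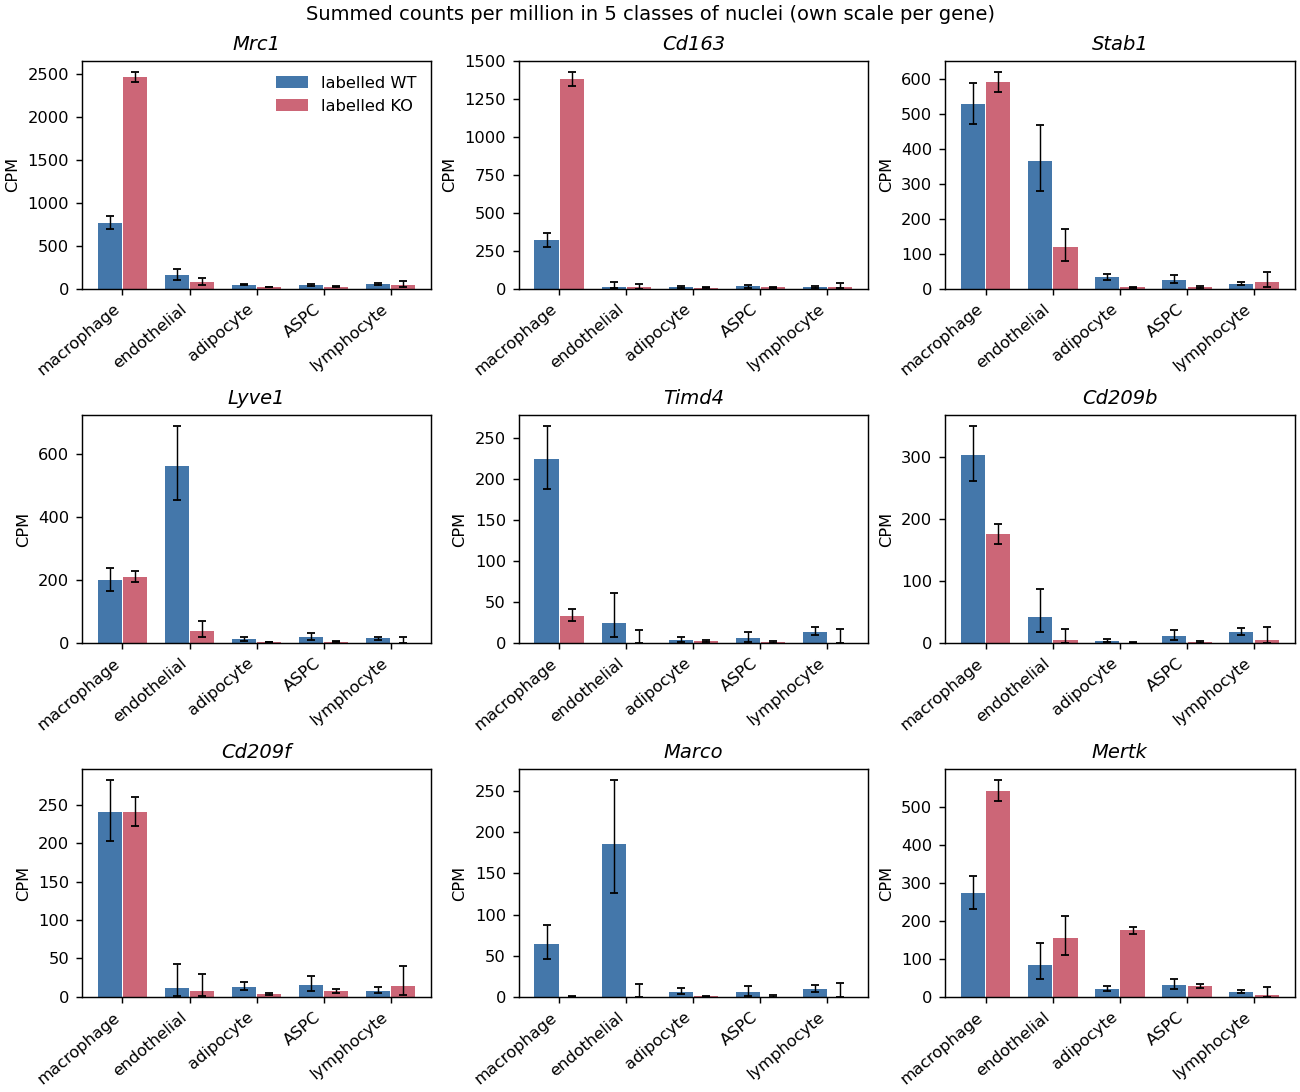
Bars show CPM (linear axis from 0, own scale for each gene) summed over the nuclei of 5 classes, labelled WT in blue and labelled KO in red, with exact Poisson 95% intervals for counting error. Macrophages stand highest for all genes but Lyve1 and Marco in the library labelled WT and Marco in the library labelled KO, and Mertk has a second bar of 175 CPM in labelled KO adipocytes. ASPC stands for adipogenic stem and precursor cells.

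Endothelial nuclei of the library labelled WT also held Stab1, Lyve1 and Marco, with Lyve1 and Marco at a higher CPM there than in its macrophages. Labelled WT endothelial nuclei held 94 counts of Lyve1 (563 CPM, interval 455 to 689), 31 of Marco (186 CPM, interval 126 to 264) and 61 of Stab1 (365 CPM, interval 279 to 469). Labelled KO endothelial nuclei had, for the same genes, 9, 0 and 29 counts (36.7, 0 and 118 CPM). All 3 were thus lower in labelled KO nuclei. The ratio, labelled KO over labelled WT, was 0.0652 for Lyve1 (interval 0.0289 to 0.129) and 0.324 for Stab1 (interval 0.201 to 0.512), while 15.7% of the 1726 endothelial genes with at least 50 counts had a ratio of at most 0.5. Marco, with 31 counts in all, was under that minimum. It was 15.2-fold lower when its 0 counts are set to a floor of 3 counts over the class, with a counting interval of the ratio from 0 to 0.0861. The labelled WT counts of Lyve1 lay in few nuclei, and the 3 with most of it held 64 of the 94 counts. Endothelial nuclei were then divided by a UMI of Prox1, Mmrn1 or Reln, genes of lymphatic endothelium. The 32 labelled WT nuclei with such a UMI had 1332 CPM of Lyve1, 401 of Marco, 754 of Stab1 and 337 of Mrc1. The 60 nuclei without one had 105, 57.3, 134 and 47.8 CPM, and their intervals did not meet those of the nuclei with a lymphatic UMI. Cd163 did not go with them, with 1 count in each set. The library labelled KO held 3 endothelial nuclei with a lymphatic UMI, and these 3 carried all 9 of its endothelial Lyve1 counts and 0 of Stab1 and Marco. Among the 119 labelled KO nuclei without a lymphatic UMI, Stab1 had 122 CPM (interval 82.0 to 176), which overlapped the interval of the 60 such nuclei of the library labelled WT (73.1 to 224). Lyve1 and Marco had 0 counts in these 119 nuclei (interval up to 15.6 CPM for each), below the intervals of the 60 labelled WT nuclei (52.5 to 188 for Lyve1, from 11 counts, and 21.0 to 125 for Marco, from 6 counts). The number of nuclei with a lymphatic UMI differed between the libraries along with the class level of all 3 genes, while Lyve1 and Marco were lower in labelled KO also among nuclei without one. At a median of 1278 and 1644.5 UMIs in the class, a nucleus without a UMI of these markers may still be lymphatic. The part of lymphatic nuclei in these levels was not tested.

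Mertk was also detected in adipocyte nuclei. These nuclei, too, came from separate clusters, cluster 4 for all 417 labelled WT and cluster 1 for 889 of 894 labelled KO nuclei. Mertk had 41 counts in labelled WT adipocytes (21.1 CPM, interval 15.1 to 28.6) and 1512 in labelled KO adipocytes (175 CPM, interval 166 to 184). The ratio was 8.30 (interval 6.09 to 11.6), and 26.0% of the 11349 adipocyte genes with at least 50 counts had a ratio of at least 2. Relative to genes of like intronic length, its log2 ratio of 3.05 became 2.20. A Mertk UMI was present in 7.43% and 52.0% of the adipocyte nuclei, whose median depth was 3643 and 7848.5 UMIs. At an equal 1000 UMIs per nucleus the shares were 0.491% of 407 and 12.3% of 889 nuclei, with a difference of 11.8 percentage points (interval 9.33 to 14.1). Adipocyte nuclei were then divided by their macrophage marker UMIs, which most had, only 145 of the 894 labelled KO nuclei being without any. In the 771 labelled KO adipocyte nuclei without a UMI of Mrc1, Cd163 or Stab1, Mertk stood at 174 CPM, and in those 145, without a UMI of any of the 20 macrophage markers, at 124 CPM. Per count of Mrc1 there were 8.84 counts of Mertk in labelled KO adipocytes and 0.220 in labelled KO macrophages. Labelled WT values were 0.451 and 0.354 for the same classes and 0.252 in lymphocytes, where Mertk stood at 12.9 CPM. Mertk was also present in labelled KO endothelial nuclei, at 155 CPM (38 counts, interval 109.7 to 213), against 83.8 CPM (14 counts, interval 45.8 to 141) in the library labelled WT, intervals that overlap.

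**Figure D2:**
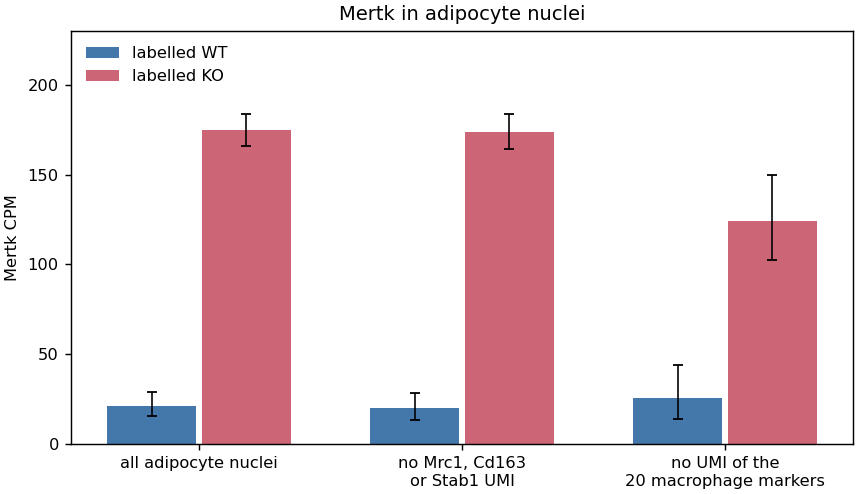
Bars show Mertk CPM (linear axis from 0) in adipocyte nuclei, labelled WT in blue and labelled KO in red, for all nuclei, for those without a Mrc1, Cd163 or Stab1 UMI and for those without a UMI of the 20 macrophage markers, with exact Poisson 95% intervals. In each set the labelled KO bar, 124 CPM or more, stands above the labelled WT bar, 25.5 CPM or less.

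Within macrophages, the receptors did not move together between the libraries. Of the 9 genes, 8 had at least 50 counts over both libraries, the minimum used for all genes, and Marco with 39 did not. Cd163 and Mrc1 had a ratio (labelled KO over labelled WT) of at least 2, as did 24.3% of the 8418 macrophage genes tested, and Timd4 had a ratio of at most 0.5, as did 12.8% of them. Marco fell on that side as well. Over all these genes the median log2 ratio was 0.08, 0.28 under TMM scaling and −0.13 with mitochondrial genes and Malat1 left out of the totals. Most macrophage nuclei of each library lay in clusters that held few of the other, so over the whole class a different mix of macrophages and a different level per nucleus cannot be told apart. Cluster 7, with most of the labelled WT nuclei, held 318 of them and also 25 labelled KO nuclei, the latter at a median of 915 UMIs.

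Summed over the class, Mrc1, Cd163 and Mertk were higher in labelled KO macrophages, but of these 3 only Mrc1 had an interval within cluster 7 that left out 1. Cd163 had 196 counts (321 CPM) in labelled WT and 3668 (1384 CPM) in labelled KO macrophages, a ratio of 4.31 (interval 3.74 to 5.01). Its log2 ratio of 2.11 was 2.25 relative to genes of like intronic length. Mrc1, at 767 and 2460.4 CPM, had a ratio of 3.21 (interval 2.92 to 3.53). Mrc1 is a long gene, and its log2 ratio of 1.68 became 0.82, under 2-fold, relative to genes of like intronic length. Mertk, also long, had 166 counts (272 CPM) and 1434 counts (541 CPM), a ratio of 1.99 (interval 1.69 to 2.35) that lay just under 2, and a log2 ratio of 0.99 that became 0.03. At 1000 UMIs per nucleus, a Mrc1 UMI was present in 40.5% of 247 labelled WT and 70.4% of 770 labelled KO macrophage nuclei, a difference in percentage points of 29.9 (interval 22.7 to 36.9). For Cd163 the shares were 17.8% and 46.9%, a difference of 29.1 (interval 22.6 to 34.9), and for Mertk 21.5% and 33.8%, a difference of 12.3 (interval 5.75 to 18.4). Within cluster 7 the ratio of Cd163 was 1.05 (interval 0.534 to 1.88), that of Mrc1 1.72 (interval 1.25 to 2.33) and that of Mertk 0.414 (interval 0.111 to 1.08), from 12, 47 and 4 labelled KO counts. The 25 labelled KO nuclei of cluster 7 were placed with labelled WT nuclei by other genes, so they do not stand for the labelled KO class. Thinning left out 73 and 48 shallower nuclei. Over the 8418 genes, the interval of this difference left out 0 for 38.2% after thinning and for 60.4% without it, in either direction, beside 4 and 7 of the 8 receptors with enough counts.

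Timd4, which like Mertk serves the uptake of dying cells, was lower in labelled KO macrophages. It had 137 counts (224 CPM, interval 188 to 265) in labelled WT and 88 (33.2 CPM, interval 26.6 to 40.9) in labelled KO macrophages, a ratio of 0.148 (interval 0.112 to 0.195). Of the 137 counts, 111 lay in 75 nuclei of 1 subcluster described below (subcluster 5), and without them the ratio was 0.629 (interval 0.402 to 1.02), an interval that holds 1. Within cluster 7, which held all 137, Timd4 had 0 labelled KO counts (interval of the ratio up to 0.469). The thinned shares were 10.5% and 2.73%, a difference of −7.80 (interval −12.4 to −3.99). Marco, the class A scavenger receptor, had 39 counts (63.8 CPM) in 19 labelled WT nuclei, with 19 of the counts in 3 of them. It had 0 counts in 818 labelled KO nuclei. The interval of that share runs up to 0.450% of nuclei with a Marco UMI, and it does not limit the share of nuclei that express the gene. With its 0 counts set to a floor of 3 counts over the class Marco was 56.4-fold lower, a value that depends on the floor. The counting interval of its ratio ran from 0 to 0.0229. Lymphocytes of the library labelled WT had 9.98 CPM of Marco and 13.3 CPM of Timd4 and a UMI of them in 1.14% and 1.54% of nuclei, against 5.94% and 13.8% of macrophages. At 1000 UMIs per nucleus the Marco shares were 1.19% (interval 0.617 to 2.07) in these lymphocytes and 3.24% (interval 1.41 to 6.28) in macrophages, intervals that overlap. Those of Timd4 were 1.09% (interval 0.546 to 1.94) and 10.5% (interval 6.99 to 15.0).

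Stab1, Lyve1 and Cd209f differed little between the macrophages of both libraries under the settings used here, though not under all others. Stab1 had 529 and 590.4 CPM (ratio 1.12, interval 0.990 to 1.26), Lyve1 198 and 209 CPM (ratio 1.05, interval 0.864 to 1.29) and Cd209f 241 and 241 CPM (ratio 1.00, interval 0.835 to 1.21). Their intervals all hold 1 and leave out a change of 2-fold in either direction. The scaling still decides the sign, since without mitochondrial genes and Malat1 their log2 ratios were −0.04, −0.13 and −0.20, and relative to genes of like intronic length 0.36, 0.47 and 0.72. With nuclei of at least 1000 genes alone, they were 0.67, 0.75 and 0.45. Cd209b, the SIGN-R1 lectin, had 185 counts (303 CPM) and 465 counts (175 CPM), a ratio of 0.579 (interval 0.488 to 0.691). Its thinned shares of 11.7% and 9.35% differed by −2.39 (interval −7.47 to 1.99), an interval that holds 0. Of its 185 labelled WT counts, 125 lay in subcluster 5, and without those nuclei the ratio turned to 1.44 (interval 1.10 to 1.92). Within cluster 7, which held all 185, the ratio was 0.279 (interval 0.0569 to 0.827), from 3 labelled KO counts.

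**Figure D3:**
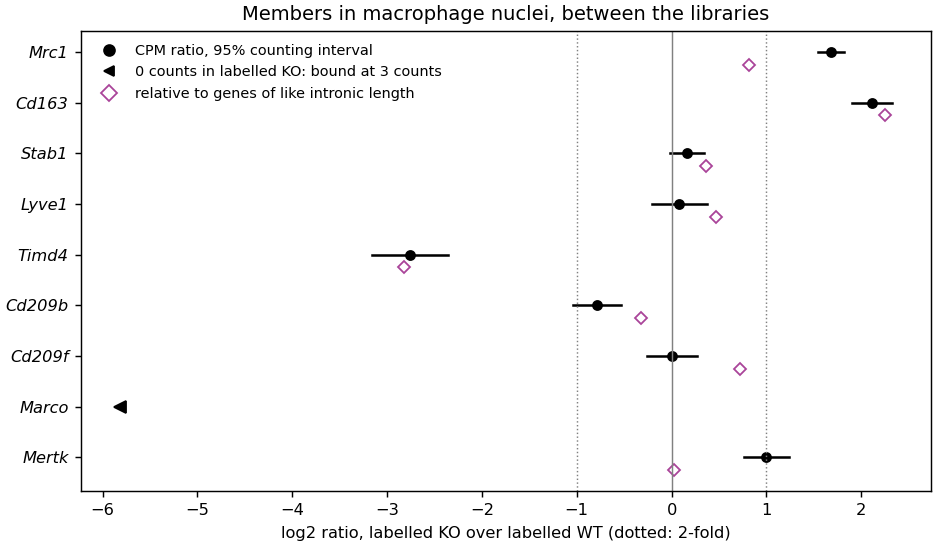
Points show the log2 ratio of macrophage CPM, labelled KO over labelled WT, for the 9 genes, with exact conditional binomial 95% intervals. The triangle gives Marco with its 0 labelled KO counts set to 3, and diamonds give the value relative to genes of like intronic length. Cd163 stands beyond 2-fold (dotted line) by both measures, Mrc1 by the first only, and Timd4 lies at −2.76 and −2.83.

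To ask how the receptors were divided among macrophages, all macrophage nuclei were clustered again without the 9 genes, which gave 8 subclusters. Of the labelled WT nuclei, 235 lay in subcluster 1 and 75 in subcluster 5, and the receptors differed between them. Subcluster 1 was led by lymphocyte genes (Trbc1, Lck, Ltb, Igkc) together with Gpnmb. Subcluster 5 was led by Cxcl9, Cxcl10, Il4i1 and Ttn, and also had Siglec1 at 566 CPM, Spic at 490.1 and Pla2g2d at 600.0, against 118, 36.5 and 23.6 in subcluster 1. Timd4 had 111 counts in it (938 CPM) and 26 in subcluster 1 (55.8 CPM), a ratio of 16.8 (interval 10.9 to 26.9). Cd209b had 1056 and 129 CPM, a ratio of 8.21 (interval 5.99 to 11.4), Mertk 904 and 124 CPM, a ratio of 7.27 (interval 5.23 to 10.2), and Marco 245 and 21.5 CPM, a ratio of 11.4 (interval 5.41 to 26.3). Within these 75 nuclei the counts were uneven. Mertk had a UMI in 45 of them, Timd4 in 30, Cd209b in 22 and Marco in 11. The 3 nuclei with most counts held 19 of the 29 Marco counts, 51 of the 125 of Cd209b, 47 of the 111 of Timd4 and 19 of the 107 of Mertk. The other 5 receptors were low there. Cd163 had 0 counts in subcluster 5 and 196 in subcluster 1 (420.4 CPM), Mrc1 203 against 950.2 CPM, Stab1 109.9 against 665, Lyve1 16.9 against 255 and Cd209f 50.7 against 302. Of the 2370 genes with at least 50 counts in these nuclei, 9.92% were at least 2-fold higher in subcluster 5 and 11.3% at least 2-fold lower, while all 9 receptors were past 2-fold, 4 up and 5 down, Marco being under the count minimum. Subclusters were made from other genes of the same nuclei, so these values describe them.

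Subcluster 1 also held 23 labelled KO nuclei, at a median of 835 UMIs against 1439 for the labelled WT nuclei. Within it the ratio between libraries was 0.980 (interval 0.463 to 1.84) for Cd163, 1.08 (interval 0.694 to 1.62) for Mrc1, 0.991 (interval 0.560 to 1.64) for Stab1 and 1.32 (interval 0.349 to 3.58) for Mertk. All of these intervals hold 1, and those of Mrc1 and Cd163 leave out the ratios of 3.21 and 4.31 found over the class. These 23 of the 818 labelled KO nuclei were placed there because their other genes were like those of labelled WT nuclei. A like level of the receptors may therefore be built in, and these values do not stand for the labelled KO class. Timd4, Cd209b and Marco had 0 counts in these 23 nuclei, with upper bounds of the ratio over 1.

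Leaving out subcluster 5 changed the comparison between libraries. The log2 ratio of Timd4 moved from −2.76 to −0.67, that of Cd209b from −0.79 to 0.53 and that of Mertk from 0.99 to 2.18, while Marco, with its 0 labelled KO counts at the floor, moved from −5.82 to −4.16, and Cd163 and Mrc1 stood at 1.80 and 1.45. Without these 75 nuclei Timd4 rested on 26 labelled WT counts (52.8 CPM) against 88, it was no longer past 2-fold and the interval of its ratio held 1. The ratio of Cd209b was then 1.44 (interval 1.10 to 1.92), and that of Mertk 4.52 (interval 3.48 to 5.97). RNA of other cells also moved with the library. The 13 T and NK cell markers were at a summed 668 CPM in subcluster 5 and 631 in subcluster 1 of the library labelled WT, and at 0 to 35.0 CPM in the subclusters of the library labelled KO. The genes of lymph node stroma and sinuses (11 in the matrix, Ccl21a, Cxcl13 and Cr2 among them) were at 372 and 489 CPM, against 39.3 in subcluster 0 and at most 82.4 in any labelled KO subcluster. Their part in the receptor values was not tested.

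Among labelled KO nuclei, the receptors divided along another line. Subclusters 0 and 2, with 260 and 241 nuclei, both carried Mrc1 (3611 and 3196 CPM, a UMI in 99.2% and 95.4% of nuclei), Cd163 (2389 and 1851 CPM), Stab1 (904 and 930.1 CPM) and Mertk (751 and 759.8 CPM). Lyve1 set them apart, with 505 counts (523 CPM) in subcluster 0 and 24 (37.1 CPM) in subcluster 2, a ratio of 14.1 (interval 9.35 to 22.2). Timd4, Cd209f and Cd209b went with Lyve1, at ratios of 4.98 (interval 2.47 to 11.4), 3.81 (interval 3.04 to 4.81) and 2.67 (interval 2.12 to 3.39). A ratio of at least 2 was thus reached by 4 of the 8 receptors with counts, against 2.93% of 5630 genes, and one of at most 0.5 by none, against 2.72%. Subcluster 0 was led by Colec12, Vsig4, Ednrb and C6, of which Colec12 is itself a scavenger receptor and Vsig4 a complement receptor. All 8 receptors were at 0.5 or less of their subcluster 0 level in subclusters 3 and 4, a ratio that 10.2% of 5516 genes and 14.7% of 4992 genes had in the same comparisons. Subcluster 3 (163 nuclei, led by Sntg1, Fn1 and Aldh1a2, with Ccl17, Cd226, Klri1 and Ltb4r1 also among its leading genes) kept Mrc1 at 1197 CPM but had Cd163 at 186, Stab1 at 42.4 and Lyve1 at 11.1 CPM. Ccl17 is a chemokine known from dendritic cells, and the 12 dendritic markers were at a summed 984 CPM in subcluster 3 and 1074 in subcluster 0. By number of markers past the naming thresholds, cluster 9 of the first clustering had 6 dendritic markers and cluster 3 had 2. These stood beside 15 and 17 macrophage markers. Whether part of subcluster 3 is dendritic was not tested. Without subclusters 3, 6 and 7 the ratio between libraries was 3.72 (interval 3.38 to 4.09) for Mrc1, 5.38 (interval 4.66 to 6.25) for Cd163, 2.38 (interval 2.02 to 2.82) for Mertk and 1.41 (interval 1.25 to 1.60) for Stab1. Lyve1 had 1.34 (interval 1.09 to 1.64) and Cd209f 1.26 (interval 1.05 to 1.52), while Timd4 and Cd209b stayed under 1, at 0.166 and 0.734. This left 310 of 320 labelled WT but 604 of 818 labelled KO nuclei. Nuclei low in most receptors were thus removed almost only from the library labelled KO, which by itself raises such ratios. Subcluster 4 (80 nuclei, led by St18, Chst11 and Atp6v0d2) had Mrc1 at 848, Cd163 at 151 and Mertk at 316 CPM. This subcluster also had Trem2 at 372 and Gpnmb at 331 CPM, genes known from lipid-laden macrophages, against 45.5 and 8.28 CPM in subcluster 0. Subcluster 6 (28 labelled KO nuclei, led by Ace and Treml4) held 0 to 2 counts of each receptor. Subcluster 7 (23 nuclei) was led by Clec9a and Il12b, genes of dendritic cells, and held 11 of the 88 labelled KO counts of Timd4 (167 CPM), with at most 3 counts of any other receptor. Of the other labelled KO Timd4 counts, 67 lay in subcluster 0.

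**Figure D4:**
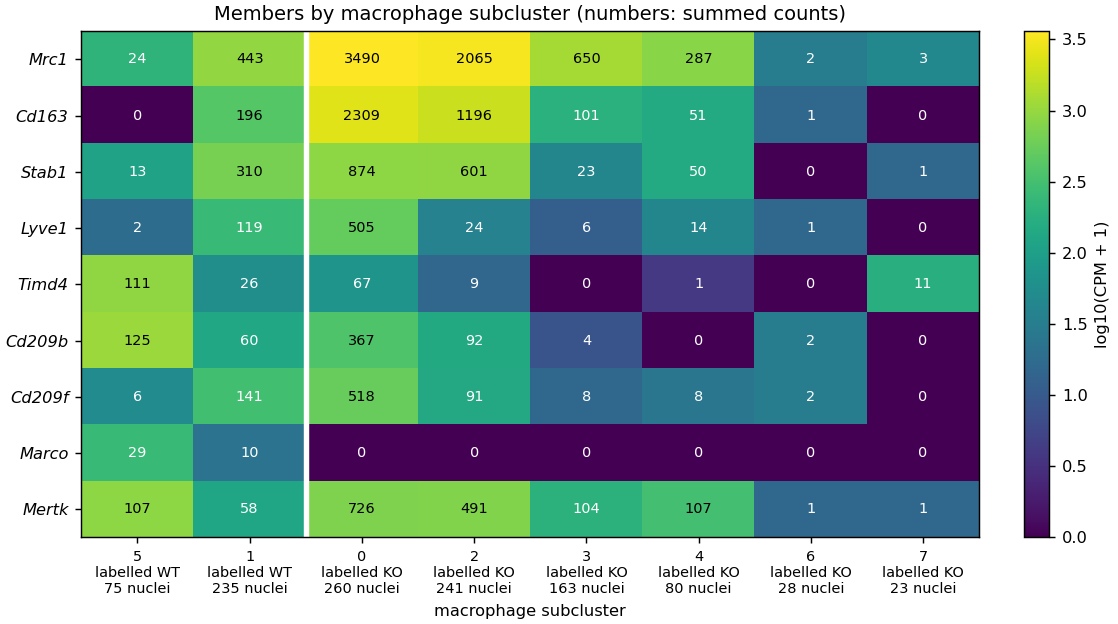
Colour gives log10(CPM + 1) of each gene in the macrophage subclusters, those of the library labelled WT left of the white line and those of the library labelled KO right of it, and numbers give summed counts. The 23 labelled KO nuclei of subcluster 1 and the 10 labelled WT nuclei of subclusters 3 and 6 are not drawn. Timd4, Cd209b, Marco and Mertk are high in subcluster 5 where Cd163 has 0 counts, and Lyve1 falls from 505 counts in subcluster 0 to 24 in subcluster 2.

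After integration of the libraries with Seurat anchors, which places nuclei of both into shared clusters, the largest macrophage cluster held 247 labelled WT and 521 labelled KO nuclei. Within it, Mrc1 had 1010.5 and 3430.5 CPM, a ratio of 3.39 (interval 3.07 to 3.76), and Cd163 477 and 2106 CPM, a ratio of 4.42 (interval 3.82 to 5.13). Timd4 had 333 and 45.1 CPM, a ratio of 0.136 (interval 0.101 to 0.181), and Marco 36 counts against 0. Cd209f again had a ratio near 1, at 1.04 (interval 0.864 to 1.25), and Stab1 had 1.32 (interval 1.16 to 1.50). This cluster held all 75 nuclei of subcluster 5, with 111 of its 136 labelled WT Timd4 counts, so its Timd4 and Marco values restate those of the class rather than add to them. These 75 nuclei also held 125 of its 166 labelled WT counts of Cd209b and 107 of its 172 of Mertk. The ratios of Cd209b and Mertk in this cluster thus rest on them too. Without them the ratios over the class were 1.44 and 4.52. The 75 nuclei also held 118343 of the 408723 labelled WT UMIs of this cluster. They had only 24 of its 413 counts of Mrc1, 0 of 195 of Cd163 and 13 of 274 of Stab1. The ratios of these 3 genes in this cluster are thus raised by the 75 nuclei. Over the class without them the ratios were 2.72 for Mrc1, 3.48 for Cd163 and 0.938 for Stab1 (interval 0.830 to 1.06). In the other shared cluster named macrophage, with 71 labelled WT and 94 labelled KO nuclei, Mrc1 was again higher (280.5 and 811 CPM, ratio 2.89, interval 2.12 to 4.03) and Cd163 had 0 and 65 counts. Stab1 went the other way there than in the largest cluster, at a ratio of 0.578 (interval 0.397 to 0.848). Mertk had a ratio of 1.78 (interval 1.52 to 2.10) in the largest cluster and 3.72 (lower bound 2.09) in this one, and Cd209b 0.662 (interval 0.553 to 0.796) in the largest, with 20 and 0 counts here. Another shared cluster stayed unnamed, with 13 macrophage and 7 dendritic markers past the thresholds and Clec9a among its leading genes. It held 184 of the 818 labelled KO and 24 of the 320 labelled WT nuclei of the macrophage class. Ratios were taken over all its nuclei, 186 labelled KO and 75 labelled WT. Mrc1 had a ratio of 5.11 (interval 3.30 to 8.34), Cd163 3.24 (interval 1.42 to 9.10) and Mertk 16.7 (interval 2.89 to 668), from 21, 6 and 1 labelled WT counts. Most of the 75 were not of the macrophage class, while nearly all of the 186 were. These ratios therefore do not compare macrophages alone.

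The co-detection of receptors in single nuclei was then counted, as nuclei with a UMI of both genes beside the number expected from each gene's own frequency within 5 classes of depth. A nucleus of the library labelled WT carried a median of 2 of the 9 receptors, and one of the library labelled KO a median of 3. At 1000 UMIs per nucleus, at least 3 receptors were found in 27.5% of 247 labelled WT nuclei (interval 22.1 to 33.6) and in 45.3% of 770 labelled KO nuclei (interval 41.8 to 48.9). No nucleus of either library had all 9, and in the library labelled KO the most that could be found was 8. Of the 28 pairs with at least 10 nuclei observed or expected, 20 were above the expected number among labelled WT nuclei, and 28 of 28 such pairs were among labelled KO nuclei. The share of other gene pairs above expectation was not computed, and the class holds subclusters that were low in nearly all receptors (3, 4, 6 and 7), so these counts describe the 9 genes and show nothing particular to them.

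The most frequent labelled WT pairs were Mrc1 with Stab1 (93 nuclei against 64.0 expected), Mrc1 with Cd163 (48 nuclei against 30.1 expected) and Mrc1 with Cd209f (43 nuclei against 26.3 expected). The pairs farthest above the expected number were Cd209b with Marco (14 nuclei against 2.78 expected, 5.03 times as many), Timd4 with Marco (11 nuclei against 2.67 expected, 4.12 times) and Lyve1 with Cd209f (32 nuclei against 7.88 expected, 4.06 times). Of the 19 nuclei with Marco, 14 also had Cd209b. The pairs farthest below were Lyve1 with Mertk (8 nuclei against 13.8 expected), Cd163 with Mertk (13 nuclei against 18.2 expected) and Stab1 with Cd209b (14 nuclei against 18.7 expected), and the counting intervals of these 3 ratios of observed to expected hold 1. Mertk was found in 52.3% of nuclei with Timd4 (interval 36.7 to 67.5) and in 24.6% of those without (interval 19.7 to 30.2).

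Labelled KO nuclei had Mertk in their most frequent pair. These pairs were Mrc1 with Mertk (445 nuclei against 387 expected), Mrc1 with Cd163 (435 nuclei against 377 expected) and Mrc1 with Stab1 (386 nuclei against 341 expected). Mertk was found in 72.6% of labelled KO nuclei with Cd163 (interval 68.3 to 76.7) and 36.6% of those without (interval 31.6 to 41.8). Of labelled WT nuclei with Cd163, 21.7% had Mertk, and whether this link differs between the libraries was not tested. The pairs farthest above the expected number were Lyve1 with Timd4 (34 nuclei against 14.6 expected, 2.34 times as many), Cd209b with Cd209f (93 nuclei against 42.9 expected, 2.17 times) and Timd4 with Cd209b (20 nuclei against 9.75 expected, 2.05 times). In the library labelled KO 34 of the 54 nuclei with Timd4 had Lyve1. Among labelled WT nuclei 7 of the 44 with Timd4 had Lyve1 (6.27 expected). The lowest ratio in the library labelled KO was that of Mrc1 with Timd4 (48 nuclei against 45.2 expected), and all ratios of Mrc1 lie near 1, with Mrc1 present in 81.8% of nuclei. Taking Mrc1 or Cd163 as 1 set and Timd4, Cd209b or Marco as the other, 32 of 320 labelled WT macrophage nuclei had the second set without the first, and 9 of 818 labelled KO nuclei did (10.0% and 1.10%), at median depths of 1447 and 2856 UMIs. Thinned to 1000 UMIs per nucleus, the second set without the first was found in 9.31% of 247 labelled WT nuclei (interval 5.99 to 13.6) and in 0.909% of 770 labelled KO nuclei (interval 0.366 to 1.86).

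**Figure D5:**
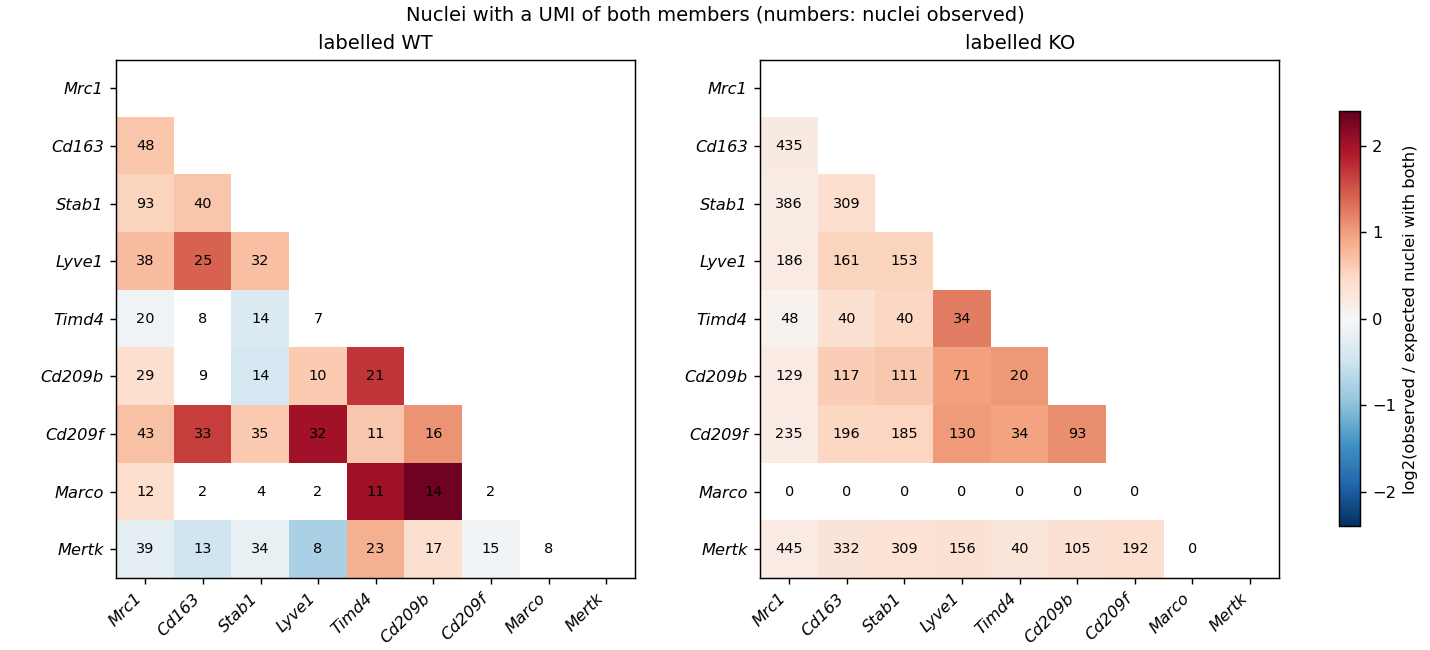
Numbers give macrophage nuclei with a UMI of both genes in the library labelled WT (left) and the library labelled KO (right), and colour gives log2 of observed over expected nuclei within depth classes, drawn for pairs with at least 10 nuclei observed or expected. The labelled WT panel has blue cells for Mertk with Mrc1, Cd163, Stab1 and Lyve1 and dark red cells for Marco with Cd209b and Timd4, and the labelled KO panel has red cells for each of the 28 pairs.

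Related genes were read from lists of other receptors of the same pathways, in macrophages and with the same count minimum, by which 24.3% of all genes were at a ratio of 2 or more and 12.8% at 0.5 or less. Of 8 other scavenger receptors, 1 reached a ratio of 2 or more and 1 was at 0.5 or less, and Colec12 had the highest ratio (19 and 581 counts, 31.1 and 219 CPM, ratio 7.05). Of 11 other C-type lectin uptake receptors, 1 was higher and 2 were lower by that measure, among them Clec4n (dectin-2) at 68.7 and 14.3 CPM. Of 16 genes of efferocytosis (the uptake of dying cells) and its bridging ligands, 3 were higher and 3 lower, with Dock1, which acts in engulfment, at 65.5 and 409.7 CPM. Of 12 opsonin receptors, 1 was higher and 2 were lower, and Vsig4 went from 4 to 290 counts (6.55 and 109 CPM). Of 20 resident macrophage genes, 3 were higher and 2 lower. F13a1, a coagulation factor subunit made by resident macrophages, stood at 663 and 3739 CPM and Rbpj, the nuclear partner of Notch, at 242 and 6773 CPM, while Spic stood at 123 and 9.81 CPM. Of 14 genes of lipid-associated macrophages, 1 was higher and 3 lower, with Gpnmb at 476 and 55.1 CPM and Dcstamp with 3 and 82 counts. Relative to genes of like intronic length, several of these values shrank. The log2 ratio of Dock1 went from 2.65 to 0.52, that of F13a1 (ratio 5.64) came to 0.91, that of Colec12 went from 2.82 to 1.26 and that of Rbpj from 4.81 to 3.98, while Vsig4 went from 4.06 to 3.65, Spic from −3.65 to −3.20 and Gpnmb from −3.11 to −3.14. By that measure 1 scavenger receptor was past 2-fold up and 2 down, 4 lectins up and 2 down, 0 efferocytosis genes up and 3 down, 3 opsonin receptors up and 0 down, 3 resident genes up and 2 down and 1 lipid-associated gene up and 3 down, beside 15.9% of all genes up and 10.6% down. The counts of the efferocytosis, lectin and opsonin lists thus depended on this choice. The median log2 ratio was 0.47 for the scavenger receptors, 0.24 for the lectins, 0.30 for efferocytosis, −0.19 for opsonin receptors, 0.13 for resident and −0.79 for lipid-associated macrophage genes, beside 0.08 for all genes. Relative to intronic length the medians were, in the same order, −0.33, 0.40, 0.17, 0.06, 0.31 and −0.23, so that of the scavenger and the opsonin receptors changed sign. Of the lymph node stroma and sinus genes, 3 had enough counts in macrophages, and 3 of 3 had a ratio of at most 0.5, with Ccl21a at 71 and 16 counts and Cr2 at 46 and 15. Relative to intronic length this held for the 2 with a listed length, which Ccl21a lacked.

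The genes whose pattern was most like that of each receptor were found over 20 points, each a cluster of 1 library with at least 30 nuclei, by Pearson correlation of log2(CPM + 1) among 12889 genes. These points share libraries and may share free RNA, so the correlations are a description. Mrc1 was closest to F13a1 (0.94), Ccl6 (0.93) and C1qb (0.92), and Cd163 to the lectin Cd209d (0.89), Cbr2 (0.87) and Ccl9 (0.87). Stab1 and Lyve1 were both closest to the scavenger receptor Msr1 (0.91 and 0.91), followed by Chp2 (0.88 and 0.85) and then by Pik3r6 (0.88) for Stab1 and P2ry6 (0.84) for Lyve1. Timd4 was closest to Ticam2 (0.97), Cd33 (0.96) and Spic (0.93), and Cd209b to Foxred2 (0.92), Cd33 (0.89) and Chp2 (0.88). Cd209f was closest to Ap2a2 (0.83), Slc25a45 (0.82) and F13a1 (0.81). For Marco the closest were Pigq (0.90), 1700020I14Rik (0.85) and Ewsr1 (0.80), and for Mertk Adap2os (0.83), Plxnd1 (0.83) and Tbxas1 (0.82).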

How the data were processed

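Nuclei of iWAT from 1 library labelled Lexis WT and 1 labelled Lexis KO, each pooled from 3 mice, were analysed. The deposited values are raw counts of UMIs for each gene in each barcode, from Cell Ranger 6.1.1 per the file headers, and the submitters' processing notes name Seurat 4 and build mm10. Each matrix holds 31053 genes by 5000 barcodes, with 9376351 UMIs (labelled WT) and 19655049 UMIs (labelled KO), and 12 barcodes occur in both. Whether intronic reads were counted, and whether free RNA was removed, is not given in the sources used here.

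Barcodes with at least 500 genes and at most 5% mitochondrial UMIs were kept. Doublets were scored with Scrublet (scanpy 1.11.5), which marked 92 nuclei of the library labelled KO. It marked 0 in the library labelled WT, where the top 4% of scores (146) were removed instead. Counts were merged and clustered with Seurat 5.3.0 in R 4.3.3 (scale 10000, 20 components, 20 neighbours, resolution 0.5) on 1991 of the 2000 variable genes, which left out the 9 receptors. A cluster was named when at least 3 markers of a class passed (in at least 5% of nuclei and at 2 times the mean CPM of other clusters) with a lead of 3 over the next class. 1 cluster of 153 labelled WT nuclei, led by genes such as Ccl19 and Ccl21a, stayed unnamed, and dividing nuclei were kept as their own class.

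Deposited counts were summed per class and library and scaled to CPM. Sums have exact Poisson, shares Clopper-Pearson and ratios conditional binomial 95% intervals. Differences of shares combine both intervals. The all-gene comparison took genes with at least 50 counts and no mitochondrial genes, a ratio past 2-fold was counted, and a count of 0 was set to 3. Shares were compared after thinning to 1000 UMIs. Intronic lengths came from gene models of an earlier assembly, matched by gene ID for 96.7% of the genes, and a running median over 501 genes gave the reference. TMM factors came from edgeR 4.0.16. Ratios, intervals and thinning were tested on simulated data. The alternatives were a stricter filter on nuclei, doublets left in, other clusterings, scalings and thinning.

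The receptors and gene lists were chosen with earlier results of these data known. All 9 receptors were named. From each pathway list, up to 4 genes with at least 50 counts and a ratio of at least 4 or at most 0.25 were named by size of change, and for each receptor the 3 genes of highest correlation. Other genes of a list or subcluster, and the leading genes, were named after their values were seen. For co-detection, the 3 most frequent pairs and the 3 farthest above and below expectation were named.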

Additional observations from a re-analysis of the deposited data

How the results depend on the processing

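No paired analysis was possible because there was 1 library per genotype, and for the same reason no replicate could be left out. Of 47 summary counts recomputed under the other settings, all small whole numbers, 46 stayed within 1.5 times, a wide band for such numbers. The exception was the number of receptors whose share of macrophage nuclei differed by an interval without 0, which was 5 of 9 at 1000 UMIs per nucleus and 8 of 9 without thinning. The number of receptors past 2-fold in macrophages was 4, and 3 to 5 under the alternatives, with Mertk added in 9 settings at 5 and Mrc1 lost relative to intronic length. Without subcluster 5 it was again 4, with Mertk in the place of Timd4. Labelled WT pairs above expectation were 20 of 28, and 18 of 19 with nuclei of at least 1000 genes. Among the recomputed log2 ratios of single receptors, 40 were scored as moved and 86 as the same. No log2 ratio that was past 2-fold over the class changed sign under the other settings. Over all settings it ranged 0.82 to 2.30 for Mrc1, 1.80 to 2.55 for Cd163, −2.96 to −0.67 for Timd4, −6.02 to −4.16 for Marco (at the floor) and 0.03 to 2.18 for Mertk. Cd209b, Stab1, Lyve1 and Cd209f changed sign under some settings, ranging −0.99 to 0.53, −0.09 to 0.67, −0.21 to 0.75 and −0.25 to 0.72. The comparisons within cluster 7 and within subcluster 1 are not among these settings. There the log2 ratio of Cd163 was 0.07 and −0.03, and that of Mrc1 0.78 and 0.12. In cluster 7 those of Cd209b and Mertk were −1.84 and −1.27, outside their ranges above. These comparisons cover only the 25 and 23 labelled KO nuclei that clustered with labelled WT nuclei. With a minimum of 200 counts, 30.5% and 7.96% of 3641 genes were past 2-fold up and down. The macrophage class held 158 to 424 labelled WT and 686 to 881 labelled KO nuclei. For the ratios between libraries, integration and the leaving out of subclusters 5, or 6 and 7, or 3, 6 and 7, or of the shallow labelled KO nuclei of cluster 7, were chosen after seeing the data. Levels of a few counts, as for Marco, are limited by depth, and the library labelled WT was the shallower.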
